A study of Mus musculus with 5 samples.

Results

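Silent chromatin carries the histone mark H3K9me3, which was examined at a stretch of mouse chromosome 17 that carries Rn18s-rs5, a pseudogene related to the 18S ribosomal RNA, and AY036118, annotated as a long non-coding RNA. The stretch was defined as the regions of the deposited table whose start lies between 39.83 and 39.86 Mb. It held 3 of the 46409 regions, called here the left, middle and right region in the order of their coordinates. The stretch was chosen by its high counts and its lower values in Prdm12-targeted cells, both seen earlier in these same libraries, so the comparison of the groups at these 3 regions is a description and carries no test.

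The cells were CD8+ T cells isolated with magnetic beads from the spleen of mice carrying the OT-I T cell receptor and a Cas9 transgene. All of them were electroporated with 300 pmol of guide complexed with 300 pmol of Cas9 protein and left to recover for 72 hours. The sgNTC group received a non-targeting guide (genotype label Prdm12-wt) and the sgPrdm12 group a guide against Prdm12 (genotype label Prdm12-ko). Each group had 2 libraries, and the libraries numbered 1 formed batch 1 and those numbered 2 batch 2. Editing was checked by T7E1 assay or Sanger sequencing, per the series' design text. The share of edited alleles, the promoter of the transgene, the age of the mice and whether libraries came from separate animals are not given in the sources used here. P-values therefore judge a difference between groups only against the spread of these libraries, and that spread may be technical. The mark was profiled by CUT&Tag, in which an antibody directs a transposase to the chromatin that carries it. A library labelled IgG was not analysed here, so no background level stands beside the values. H3K9me3 does not measure expression, and cell identity could not be checked from it.

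The genes for the large ribosomal RNA precursor lie in tandem arrays that form the nucleolus, and RNA polymerase I transcribes them. Part of the copies in a cell is kept silent by a complex that includes BAZ2A (TIP5) and SMARCA5, with DNA methylation and H3K9 methylation. The 5S ribosomal RNA comes from a separate tandem array that RNA polymerase III transcribes. Copies and relics of the ribosomal genes are nearly identical in sequence, so short reads from any of them can be assigned to whichever copy an assembly contains. The sources used here do not say how the authors' counting treated such reads, and the values at Rn18s-rs5 and AY036118 are uncertain for that reason. They need not come from this place in the genome.

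Coordinates are those of the deposited table, read as GRCm38. Summed over all regions, sgNTC-1 held 843673 counts, sgNTC-2 1060646, sgPrdm12-1 2353807 and sgPrdm12-2 1396201. Most regions were thinly covered, with median counts of 7 and 9 for sgNTC and 32 and 17 for sgPrdm12. Of a list of 8 T cell genes, 1 had a region within 5 kb of it, and 2 of 9 genes of other cell types did. None of these 3 regions was called.

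The left region, at chr17:39843144-39846665, was 3522 bp wide and was the widest of all 46409 regions, whose median width was 283 bp. It began 3210 bp before the lower coordinate of Rn18s-rs5 (chr17:39846354-39848202, 1849 bp) and covered 312 bp of the pseudogene at that end. The middle region, at chr17:39847735-39848748, was 1014 bp wide. It covered 468 bp of the other end of Rn18s-rs5 and 637 bp of AY036118 (chr17:39848112-39898385). The spans of both genes share 91 bp, and all of these fall inside the middle region. Between the left and the middle region lay 1069 bp inside Rn18s-rs5 with no listed region, so that 42.2% of the pseudogene was under a region. The right region, at chr17:39853996-39854319, was 324 bp wide, lay 5247 bp further on, and was wholly inside AY036118.

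The left and middle regions were covered far above everything around them, and the right region was not. The left region held 15684 counts in sgNTC-1, 16598 in sgNTC-2, 18970 in sgPrdm12-1 and 13226 in sgPrdm12-2. In raw counts the groups overlapped, because the highest and the lowest value were both from sgPrdm12. By mean count the left region ranked 5 among all regions. In the middle region sgNTC had 5396 and 3661 counts and sgPrdm12 4153 and 2779, which ranked it 16. Here sgNTC-1 was the highest library and the groups again overlapped. In the right region sgNTC had 14 and 9 counts and sgPrdm12 25 and 21, against medians of 7, 9, 32 and 17 over all regions, and ranked 19756. The 3 members of the stretch thus fall into a heavily covered pair at Rn18s-rs5 and 1 ordinary region within AY036118. Of Rn18s-rs5 and AY036118, only the former is ribosomal by name, so the description as a ribosomal repeat fits the pair. For the right region it was not borne out by annotation, although AY036118 was placed in the list of ribosomal RNA genes and relics used below.

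Read density, as RPKM, the count scaled to the library total and to the width of the region in kb, separated the pair from its surroundings in every library. In the left region it was 5278 and 4443 in sgNTC and 2288 and 2690 in sgPrdm12. In the middle region it was 6308 and 3404 in sgNTC and 1740 and 1963 in sgPrdm12. The right region stood at 51.2 and 26.2 against 32.8 and 46.4, with the groups overlapping. AY036118 overlapped 5 regions in all, and the 3 that lie beyond the stretch held between 3 and 35 counts per library. The 22 other regions within 500 kb of the stretch held at most 17, 23, 56 and 35 counts in sgNTC-1, sgNTC-2, sgPrdm12-1 and sgPrdm12-2. Their highest density was 85.0, in sgPrdm12-1. The heavy coverage therefore ended with the middle region, a short way into AY036118, and did not extend along that gene.

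**Figure D1:**
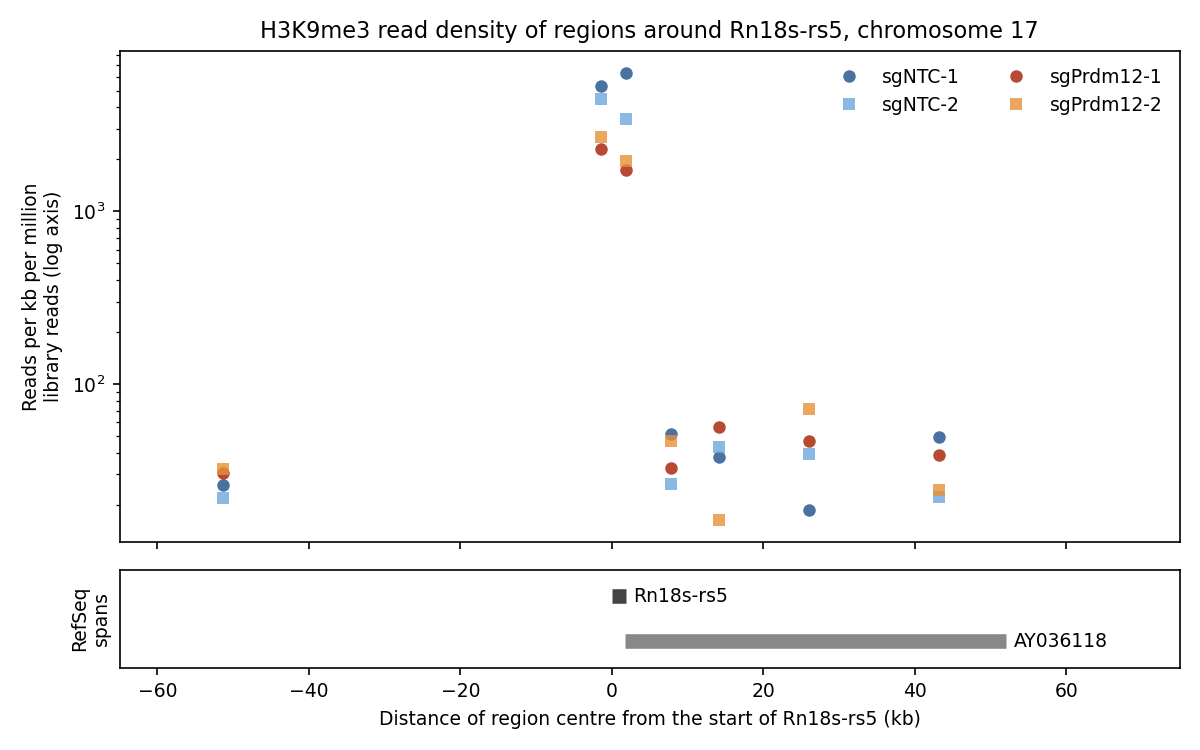
Read density of each region (RPKM, log axis) against the distance of its centre from the start of Rn18s-rs5 in kb, with 1 point per library and the RefSeq gene spans beneath. The left and middle regions sit between 1740 and 6308 in all 4 libraries, and the right region and the neighbouring regions all lie below 100.

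Just inside the upper limit of the interval the last member was the right region, and just outside it the next region, at chr17:39860410-39860628, had sgNTC counts of 7 and 10 and sgPrdm12 counts of 29 and 5. On the other side the nearest region outside, at chr17:39794628-39795405, held 17 and 18 against 56 and 35. Both are ordinary in coverage, so where exactly the limits lie does not affect which regions carry the reads.

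As a share of the library total, the stretch stood lower in both sgPrdm12 libraries. The 3 regions together held 2.50% of the counts in sgNTC-1 (Wilson 95% interval 2.47 to 2.53), 1.91% in sgNTC-2 (1.89 to 1.94), 0.983% in sgPrdm12-1 (0.971 to 0.996) and 1.15% in sgPrdm12-2 (1.13 to 1.17). The intervals cover counting error only. Both sgNTC values were above both sgPrdm12 values, and the gap within sgNTC was many times its counting error. The group means were 2.21% ± 0.417 in sgNTC and 1.07% ± 0.116 in sgPrdm12 (SD, n = 2), a ratio of 0.483. The ratio was 0.393 in batch 1 and 0.601 in batch 2. With 2 libraries against 2, an exact two-sided permutation test cannot give a p below 0.333.

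The left region alone held 1.86% and 1.56% of the counts in sgNTC and 0.806% and 0.947% in sgPrdm12. The middle region held 0.640% and 0.345% against 0.176% and 0.199%. In both regions each sgNTC value lay above each sgPrdm12 value on this scale. How many of all regions part the groups in this way was not counted, and this contrast chose the stretch. In the middle region sgNTC-1 stood apart from the other 3 libraries. The right region held 0.00166% and 0.000849% against 0.00106% and 0.00150%, so its groups overlapped and the difference was not detectable at this depth.

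**Figure D2:**
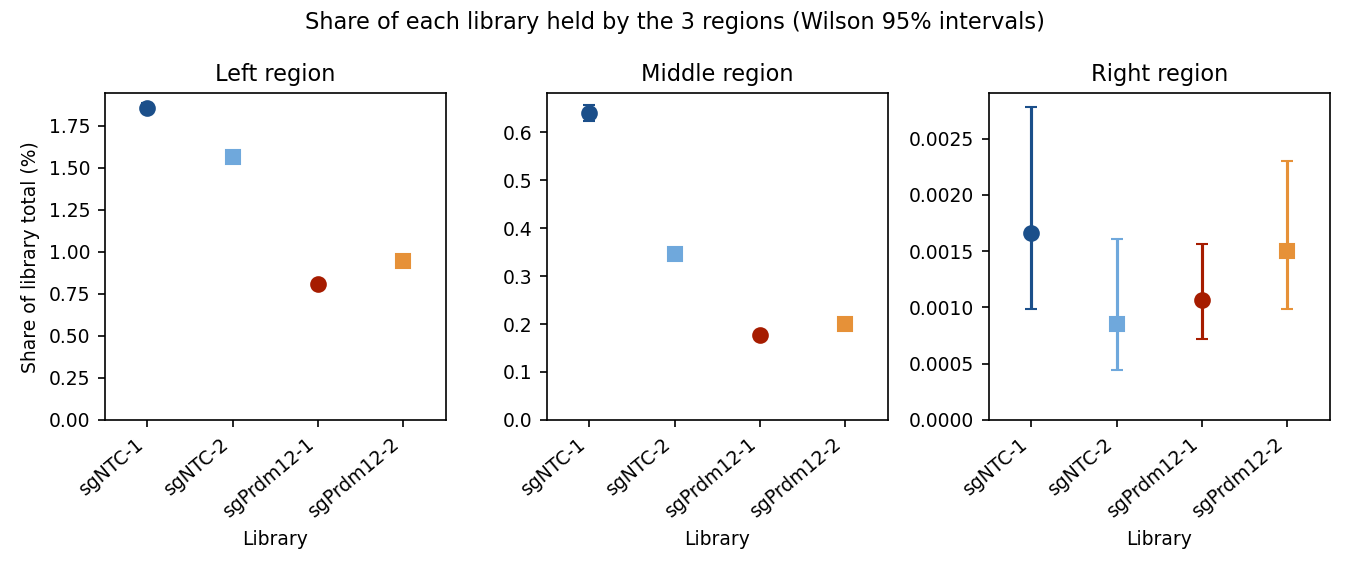
Share of the library total (percent) held by the left, middle and right region in each of the 4 libraries, with Wilson 95% intervals for counting error. In the left and middle regions both sgNTC points lie above both sgPrdm12 points, and in the right region the intervals overlap.

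The same order held on the authors' normalized signal, which is the count times 1 constant per library. In sgNTC the left region stood at 20191 and 18065, and in sgPrdm12 at 12102 and 14796. The middle region stood at 6947 and 3985 against 2649 and 3109. CPM (counts relative to the effective library size) on the TMM scale, a normalization that centres on the typical region, gave 22016 ± 1189 and 7671 ± 1340 for the left region and 6267 ± 2258 and 1641 ± 240 for the middle region (SD, n = 2, sgNTC and sgPrdm12). On all of these scales the sgNTC libraries were the higher ones at both regions.

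How far the stretch stood below depended on the scale, since the typical region itself moved. On the TMM scale the log2 fold change, sgPrdm12 over sgNTC, was -1.52 (SE 0.20) for the left region, -1.93 (SE 0.23) for the middle region and -0.51 (SE 0.60) for the right region, where the median of all tested regions was -0.01. In batch 1 the values were -1.77, -2.42 and -1.20, and in batch 2 they were -1.30, -1.37 and 0.25. With total counts the median of all regions was 0.61, and the values were -0.91, -1.34 and 0.09. With the authors' constants the median was 1.00, and they were -0.51, -0.92 and 0.49. The left and middle regions thus stood below 0 on every scale, while the right region changed sign between batches and on the scales of total counts and of the authors' constants. Relative to the median region the left region stood between -1.53 and -1.50 and the middle region between -1.95 and -1.92 on the 4 scales used, which share the same counts and differ by 1 factor per library. On the TMM scale 0.899% of tested regions lay below the left region, 0.308% below the middle region and 20.3% below the right region.

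**Figure D3:**
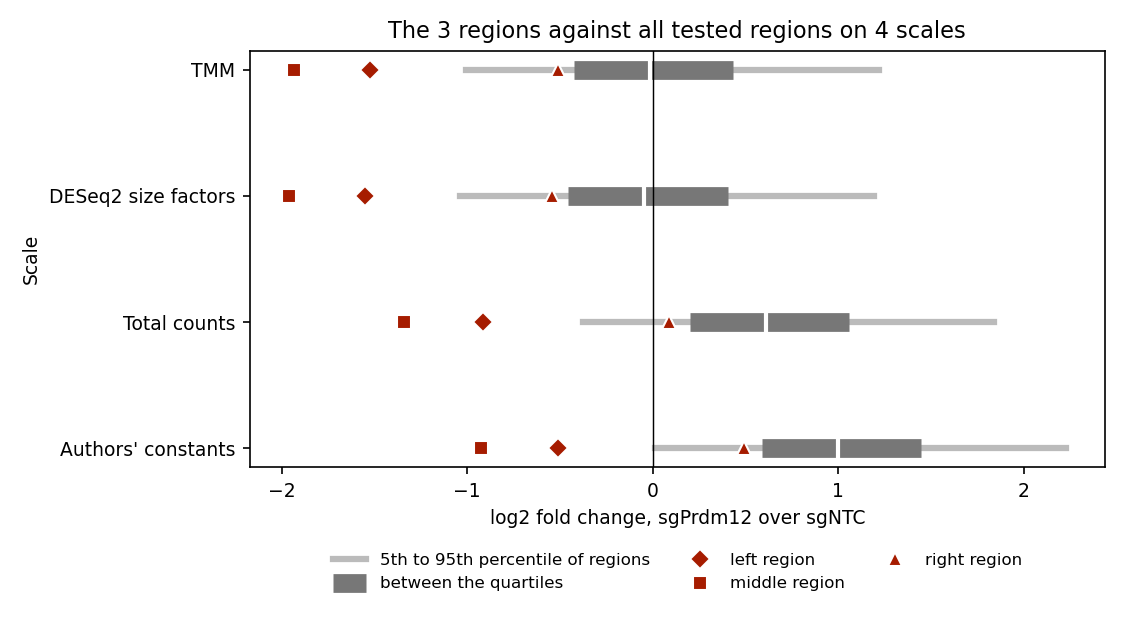
Log2 fold change, sgPrdm12 over sgNTC, of the left, middle and right region (red symbols) on 4 scales, against the spread of all 37390 tested regions (thin grey bars from the 5th to the 95th percentile, thick bars for the quartiles, white tick at the median). The grey bars move from a median of -0.01 with TMM to 1.00 with the authors' constants, and the left and middle regions lie to the left of the thin bars on each scale.

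In the fit across all regions (edgeR's quasi-likelihood test, Benjamini-Hochberg adjusted p under 0.05) the left and middle regions, 2 of the 3, were among the 141 regions called lower, which are 0.377% of the 37390 tested, where 0.110% were higher and 0.487% were called in either direction. With total counts 0.198% of regions were lower, 3.27% higher and 3.46% either, and with the authors' constants 0.139%, 20.8% and 20.9%. The right region passed the filter on low counts and was not called. Because this contrast chose the stretch, nothing is read from that count. When either sgNTC library was left out, neither region was called, and the log2 fold changes then ranged from -1.65 to -1.51 for the left region and from -2.34 to -1.55 for the middle region.

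Ratios between regions of 1 library need no scale, and the middle region's part of the pair set sgNTC-1 apart. The middle region made up 25.6% of the counts of the left and middle regions in sgNTC-1 (Wilson 95% interval 25.0 to 26.2). It made up 18.1% in sgNTC-2 (17.5 to 18.6), 18.0% in sgPrdm12-1 (17.5 to 18.5) and 17.4% in sgPrdm12-2 (16.8 to 18.0). The interval of sgNTC-1 lay apart from those of the other 3 libraries, which overlapped each other. In this ratio sgNTC-2 thus lay with the sgPrdm12 libraries. The larger difference of the middle region came with this library, since without it the middle region stood at -1.55 and the left region at -1.51 on the TMM scale.

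As a share of the library total, the 5S ribosomal RNA array stood higher in both sgPrdm12 libraries. The array, a cluster of 42 annotated 5S genes on chr8:123538784-123622046, had 17 regions within 5 kb of a gene. Their sum was taken after the values of the single regions had been seen. It came to 195 and 232 counts for sgNTC and 890 and 706 for sgPrdm12, or 0.0231% and 0.0219% of the totals against 0.0378% and 0.0506%. This order of the groups was opposite to that at the stretch, but most regions moved in the same direction as the array. With total counts 15.2% of all tested regions had a log2 fold change below 0. On the TMM scale the sum was 290 ± 8.34 and 388 ± 102 CPM (SD, n = 2), a log2 fold change of 0.42, with 0.15 in batch 1 and 0.64 in batch 2. It was 0.04 without sgPrdm12-2. On the scale of total counts it was 1.02, where the median of all tested regions was 0.61. With the authors' constants it was 1.43, where that median was 1.00.

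Of the 17 regions of the array 13 were tested and 0 were called by edgeR on the TMM scale, by DESeq2 or by limma-voom, while 3 had an unadjusted edgeR p under 0.05, as 2399 of the 37390 regions tested did. By edgeR 3 of them were higher on the scale of total counts, where 3.27% of all regions were. On that of the authors' constants 10 were, beside 20.8% of all regions. Their median log2 fold change on the TMM scale was 0.78, and 11 of 13 lay above 0. Over all tested regions 50.8% lay below 0. The most covered of them, at chr8:123600534-123601377, held 71 and 83 counts against 251 and 194 and stood at 0.03 (SE 0.30, edgeR adjusted p = 0.999). The next in coverage, at chr8:123616957-123617804, held 37 and 39 against 126 and 82 and stood at -0.09 (SE 0.35). The region near n-R5s149 had sgNTC counts of 0 and 2 and sgPrdm12 counts of 24 and 36 (edgeR, adjusted p = 0.133). The region near n-R5s120 had 10 and 6 against 57 and 56 and stood at 1.34 (SE 0.52, edgeR adjusted p = 0.457). Both of these regions were called higher on the scales of total counts and of the authors' constants.

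Set against the 5S array in the same library, the stretch held 108 times its counts in sgNTC-1, 87.4 times in sgNTC-2, 26.0 times in sgPrdm12-1 and 22.7 times in sgPrdm12-2. The groups did not overlap in this ratio. That follows from the shares already given, lower at the stretch and higher at the array in both sgPrdm12 libraries. The stretch was also chosen by its lower values, so the ratio adds no support. By itself it does not show which of the 2 loci moved. On the TMM scale the log2 fold change was -1.60 for the stretch and 0.42 for the array, where the median of all tested regions was -0.01.

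Against the most covered region of the table the ratio did not separate the groups. That region, on chromosome 2 with no gene within 5 kb, held 7.76 times the counts of the stretch in sgNTC-1, 11.6 times in sgNTC-2, 8.57 times in sgPrdm12-1 and 9.09 times in sgPrdm12-2. The values of sgPrdm12 lay between those of sgNTC.

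**Figure D4:**
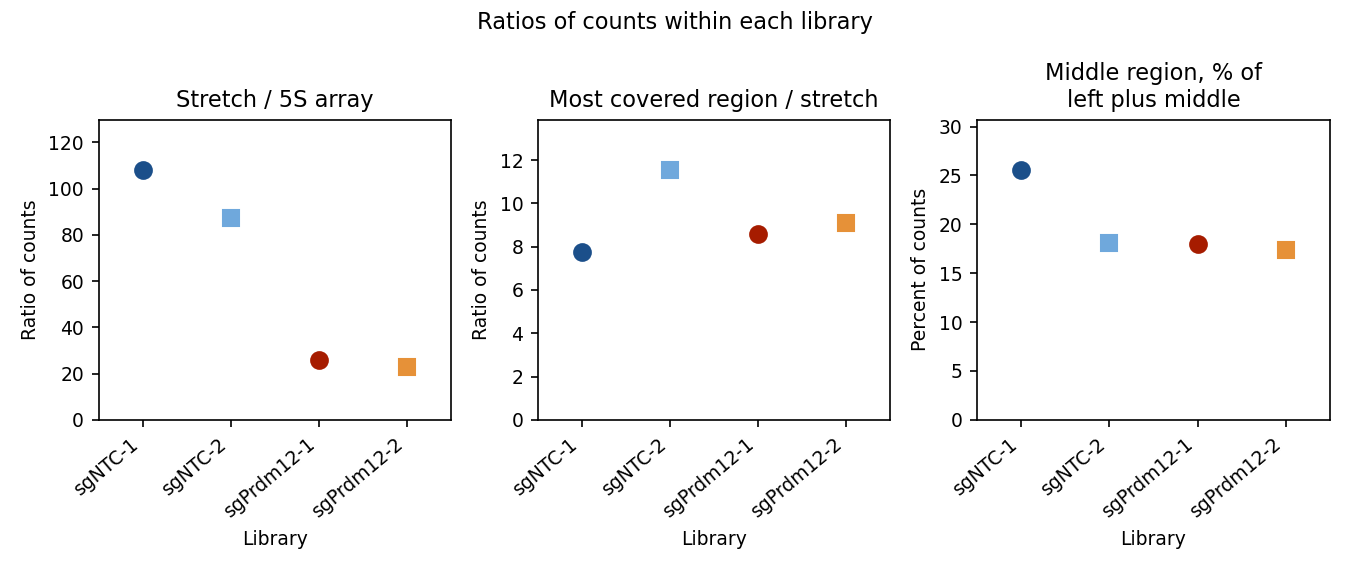
Ratios of counts within each library, namely the stretch over the 5S array, the most covered region over the stretch, and the middle region as a percent of the left plus middle regions. The first ratio is 87.4 or more in sgNTC and 26.0 or less in sgPrdm12, the second overlaps between groups, and in the third sgNTC-1 stands at 25.6% with the other 3 libraries between 17.4% and 18.1%.

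Of the 10 most covered regions the left region was 1. Of the other 9, 8 also held a lower share in both sgPrdm12 libraries, with ratios of mean shares, sgPrdm12 over sgNTC, from 0.326 to 0.506. The left region stood at 0.512 and the middle region at 0.381, so the left region lay just above that range and the middle region within it. The exception was a region in 2700054A10Rik, also on chromosome 17, with a ratio of 2.18. The share of all regions that part the groups as the 8 do was not counted. With total counts 15.2% of all tested regions had a log2 fold change below 0. On the TMM scale edgeR called the 8 lower, beside 0.377% of all regions, with log2 fold changes from -2.20 to -1.55. There the region in 2700054A10Rik stood at 0.57 and was not called. The 10 regions together took 39.8% and 44.0% of the counts in sgNTC and 18.4% and 22.4% in sgPrdm12. This share moved with the result at the stretch, and its part in it was not tested. Left out of the totals, the 10 most covered regions outside the stretch raised its share to 4.06% and 3.34% in sgNTC. In sgPrdm12 it rose to 1.20% and 1.48%. Those regions held a larger part of the counts in sgNTC, so leaving them out could only widen the gap. It is no test of the difference.

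**Figure D5:**
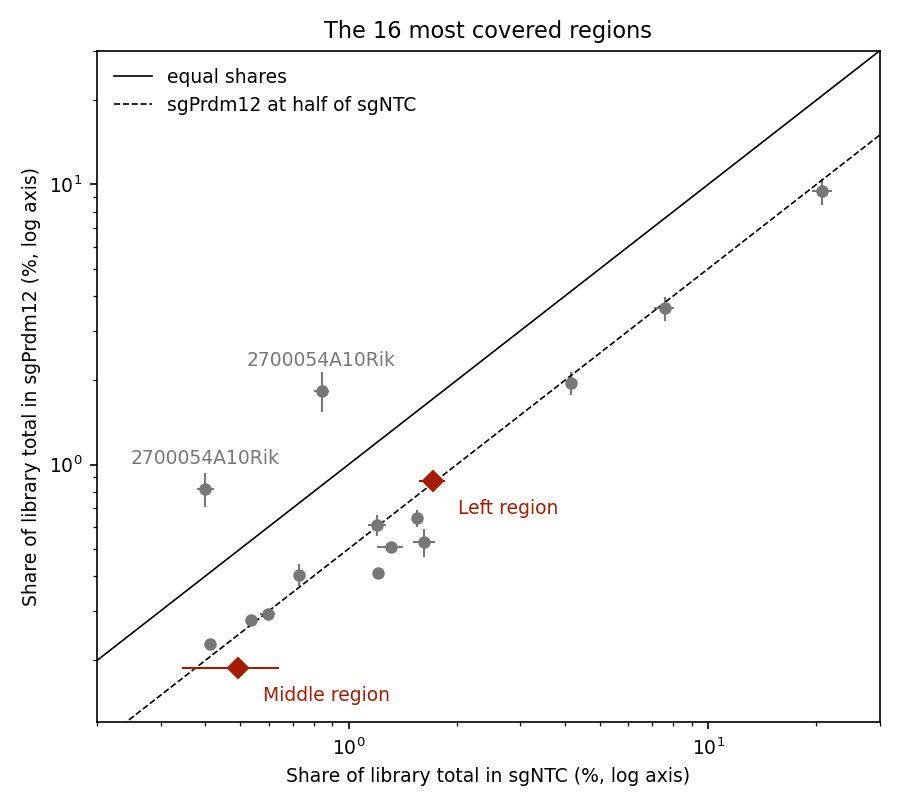
Mean share of the library total in sgPrdm12 against sgNTC (percent, both axes log) for the 16 most covered regions, with bars that reach the values of both libraries of a group. The left and middle regions (red diamonds) lie with the grey regions near the dashed line of a ratio of 0.5, and the 2 regions in 2700054A10Rik lie above the line of equal shares.

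The genes with the profile most like the summed stretch over the 4 libraries were taken from 174 regions with a mean of at least 100 counts and a gene within 5 kb. Likeness was the Euclidean distance between centred log2 CPM, whose median over these regions was 1.28. The nearest was a region in Gm36264 on chromosome 13 at a distance of 0.10, with sgNTC counts of 335 and 339 and sgPrdm12 counts of 351 and 250. Next came regions beside Gm18604 at 0.24, in Cldn34d, a claudin family gene, at 0.26, beside Elobl at 0.30 and beside Mir101c, a microRNA gene, at 0.31. Of these, Gm18604 lies on chromosome 17 as the stretch does. The region beside Mir101c, at chr9:3037857-3038277, lies near chr9:3023412-3024666, which ranked 2 by mean count among all regions. With 4 libraries a profile has few degrees of freedom, so the order among these 5 genes says little.

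Genes of the ribosomal RNA pathway were taken from 7 lists, of which the ribosomal RNA genes and relics, 5S included, had a region at 43 of 73 genes. Outside the stretch, 0 of its 20 tested regions were called on the TMM scale by edgeR, DESeq2 or limma-voom. Of them 4 had an unadjusted edgeR p under 0.05, and the median log2 fold change was 0.53. Counts at this unadjusted threshold, here and in the lists that follow, stand beside 2399 of 37390 over all regions. Outside the stretch, 94 regions lay within 5 kb of a listed gene and 82 were tested, of which 2 were called higher and 4 lower by edgeR on the TMM scale, beside the shares of all regions given above. With total counts 13 of them were higher and 3 lower, beside 3.27% and 0.198% of all regions. With the authors' constants 29 and 3 were, beside 20.8% and 0.139%. Few genes of the pathway carry the mark nearby in this table, so most lists rest on a handful of regions.

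Among the short RNA genes of RNA polymerase III, 4 of 10 had a region. Beside 0.377% of all regions, 2 of the 4 tested regions were lower, at Rmrp and Rpph1. These encode the RNA parts of RNase MRP, which cuts the ribosomal RNA precursor, and of RNase P, which trims transfer RNA precursors. Rmrp had sgNTC counts of 147 and 41 and sgPrdm12 counts of 58 and 4, and it fell by 3.36 on the log2 scale (SE 0.42, adjusted p = 1.82e-08 by edgeR). For Rpph1 the counts were 341 and 83 against 142 and 0, a region that fell by 3.45 (SE 0.46, adjusted p = 9.77e-08 by edgeR). In both, the batch 1 library was far above the batch 2 library of its group. On the TMM scale the groups did not overlap, but the share of all regions that part the groups in this way was not counted. Leaving out sgNTC-1 ended both calls, as did limma-voom and the Wald test of DESeq2, and over all alternatives the adjusted p ranged from 2.03e-20 to 0.207 for Rmrp and from 5.41e-49 to 1.00 for Rpph1. The log2 fold change ranged over them from -5.66 to -2.16 for Rmrp and from -11.26 to -2.10 for Rpph1. That of Rpph1 was -3.30 in batch 1 and -8.35 in batch 2, where the sgPrdm12 library held 0 counts. The batch 2 value thus depends on a small constant added to the counts, and neither it nor the fitted value is a bound.

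Of 55 genes of ribosomal RNA processing 2 had a region, and the 1 tested was called higher, beside 0.110% of all regions. A single region says nothing about the list. It lay 198 bp from Wdr12, which encodes a subunit of a complex that matures the large ribosomal subunit. Its counts were 0 and 5 in sgNTC against 65 and 37, and it rose by 2.78 (SE 0.71, adjusted p = 0.0396 by edgeR). It did not pass with DESeq2 size factors, with limma-voom or without sgNTC-1, sgPrdm12-1 or sgPrdm12-2, and the adjusted p over the alternatives ranged from 2.52e-06 to 1.00, with no adjusted p from DESeq2's Wald test. Its log2 fold change ranged from 1.81 to 8.32 over them.

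Among the RNA polymerase I genes 5 of 22 had a region, and 0 of 4 tested regions were called by edgeR on the TMM scale or had an unadjusted p under 0.05, nor were any called by DESeq2 or limma-voom. Tbp, the TATA-binding protein that the promoter factor of this polymerase contains, stood at -1.40 (SE 0.79), with 16 and 5 counts against 25 and 2. Polr1a, the largest subunit, stood at 0.78 (SE 0.61), with 8 and 6 against 39 and 30. With the authors' constants 2 of the 4 regions were called higher, Polr1a among them, beside 20.8% of all regions.

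Of 31 genes of ribosomal gene silencing and H3K9 methylation 4 had a region, and 0 of 5 tested regions were called on the TMM scale by edgeR, DESeq2 or limma-voom, while 3 had an unadjusted edgeR p under 0.05. Of these 5, 2 were higher on the scale of total counts, beside 3.27% of all regions. On that of the authors' constants 2 were, beside 20.8%. Baz2a and Smarca5 had no region within 5 kb. The region in Kdm2a, a lysine demethylase known to act at ribosomal genes, had 22 and 23 counts against 38 and 12 and stood at -1.47 (SE 0.48, edgeR adjusted p = 0.237). The region 4077 bp from Daxx, a histone H3.3 chaperone, held 0 counts in both sgNTC libraries and 21 and 25 in sgPrdm12, at least 2.89-fold higher with a floor of 3 counts per sgNTC library (edgeR, adjusted p = 0.152). Over the list the median log2 fold change was -0.52, also with Daxx at this bound, against -0.01 over all tested regions.

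Of the 86 cytosolic ribosomal protein genes 4 had a region, and 0 of 2 tested regions were called on the TMM scale by edgeR, DESeq2 or limma-voom, with 1 at an unadjusted edgeR p under 0.05. The region near Rpl35a held 14 and 13 against 73 and 38 and stood at 0.46 (SE 0.46), and it was called higher with the authors' constants. Ribosomal protein pseudogenes, relics of messenger RNAs copied back into the genome, had more regions, 50 near 36 of 304 pseudogenes. Of 46 tested, 1 was higher and 2 were lower by edgeR on the TMM scale, beside 0.110% and 0.377% of all regions. Their median log2 fold change was -0.12. With total counts 7 were higher and 1 lower, beside 3.27% and 0.198% of all regions. With the authors' constants 12 and 1 were, beside 20.8% and 0.139%.

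A region 2430 bp from Rps2-ps5 fell by 2.23 (SE 0.36, adjusted p = 1.18e-05 by edgeR), with 453 and 461 counts against 671 and 34. Its log2 fold change was -1.47 in batch 1 against -4.71 in batch 2. The call was lost without sgNTC-1, and limma-voom and DESeq2's Wald test made none. Over the alternatives its log2 fold change ranged from -4.87 to -1.19. The region 4244 bp from Rpl17-ps10 rose by 2.65 (SE 0.53, adjusted p = 0.00177 by edgeR), with 4 and 5 counts against 83 and 76. Leaving out sgNTC-1, sgNTC-2 or sgPrdm12-2 ended its call, as did limma-voom. The second lower region, 2004 bp from Rps10-ps1 and named after its values were seen, fell by 1.51 (SE 0.37, adjusted p = 0.0238 by edgeR), with 48 and 40 counts against 60 and 32. It did not pass when any 1 of the 4 libraries was left out, or with DESeq2 size factors, total counts or the authors' constants. Over the alternatives the adjusted p reached 0.561 for Rps2-ps5, 1.00 for Rpl17-ps10 and 0.660 for Rps10-ps1.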

How the data were processed

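For 46409 regions the authors deposited, per library, whole-number read counts and a normalized signal. The deposited counts were not normalized. In each library the authors' signal equals the count multiplied by a fixed constant (1.29, 1.09, 0.638 and 1.12 for sgNTC-1, sgNTC-2, sgPrdm12-1 and sgPrdm12-2), with a derivation not given in the sources used here. Trimmomatic, Bowtie2, MACS2 and DiffBind are named, per the submitters' processing notes, without versions or settings, so how regions were called and how reads with several matches were treated is unknown. The notes name GRCm39. Chromosome lengths were taken from memory. Against them, 66 regions on 8 chromosomes would end outside GRCm39 and 0 outside GRCm38, and coordinates were therefore read as GRCm38. Whether starts count from 0 or 1 is unknown, and widths count both ends.

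Regions were joined to RefSeq genes (GRCm38.p6) within 5 kb of their spans. No genome sequence was used here and no sequence is printed. The counts were tested over the whole table with edgeR 4.0.16 (quasi-likelihood test, TMM, filterByExpr, no block, two-sided, Benjamini-Hochberg adjusted p under 0.05; limma 3.58.1, DESeq2 1.42.0, R 4.3.3), which was first tested on simulated data. SE values were back-calculated from the quasi-likelihood F statistic. Sums of regions were compared as ratios of mean CPM (counts relative to the effective library size). Replicate numbers mark a shared batch, per the labels, and so pair the libraries. Over regions the batch differences of both groups had a correlation of -0.011. Alternatives were DESeq2 size factors, total counts, the authors' constants, a replicate block, no filter on counts, limma-voom, the Wald test of DESeq2, leaving out each library, overlap in place of 5 kb and totals without the 10 most covered regions. Those for the 5S array were added after seeing the data.

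The members, the 7 lists and the alternatives were chosen with earlier results of these data known. Named were all regions of the stretch and the nearest outside it, the 2 tested regions with the smallest p in each list, and the 5 genes with the nearest profile. Of the regions so named, 1 is not reported here.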

Additional observations from a re-analysis of the deposited data

How the results depend on the processing

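Leaving out 1 library at a time, the log2 fold change of the summed stretch ranged from -1.87 to -1.50 around -1.60, that of the left region from -1.79 to -1.41, the middle region from -2.34 to -1.55 and the right region from -0.96 to -0.10. The mean share of the stretch ranged from 1.91% to 2.50% in sgNTC and from 0.983% to 1.15% in sgPrdm12. Total counts gave -0.998 for the stretch and -0.91 for the left region, and the authors' constants gave -0.59 for the stretch, -0.51 for the left and -0.92 for the middle region. On these scales the median of all regions was 0.61 and 1.00. Without the 10 most covered regions outside the stretch the mean shares were 3.70% and 1.34%. The replicate block paired the libraries by batch. It gave -1.61 for the stretch and 45 higher and 171 lower regions among all regions, and it changed no call at the stretch or among the listed genes named.

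Among all regions, 41 were higher and 141 lower. DESeq2 size factors gave 11 higher and 96 lower, total counts 1221 and 74, and the authors' constants 7765 and 52. DESeq2's Wald test gave 5 higher and 128 lower, and limma-voom 1 and 111. Without 1 library there were 6 to 55 higher and 29 to 223 lower. Near the listed genes, outside the stretch, the 2 higher regions became 1 with DESeq2 size factors, 13 with total counts, 29 with the authors' constants, 0 with DESeq2's Wald test, limma-voom or overlap of the gene span, and 0 to 2 without 1 library. The 4 lower ones became 1 with DESeq2's Wald test or limma-voom, 2 with overlap of the gene span, and 0 to 4 without 1 library. Apart from fewer libraries and regions, the cause of these moves was not tested. Depth limits the right region and most listed genes, which rest on few counts.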
